A study of Mus musculus with 6 samples.

Results

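A mouse oocyte stores mRNA for the first days of development, and most of this store is cleared around the time when the embryo divides into 2 cells and its own genome becomes active. Nobox, Figla, Sohlh1 and Lhx8 encode transcription factors that set up the oocyte programme in the ovary, and Zar1, Zar1l, Mos, H1foo, Npm2 and Uchl1 encode products that the egg carries into fertilization. These 10 genes were selected by name from the 53023 genes of the expression table. All 10 were found, and all 10 passed the filter on low values, 2 or more libraries with at least 1 FPKM. The question was whether maternal transcripts of this kind stayed higher in two-cell embryos given wild-type PIASy, a SUMO E3 ligase that also acts as a transcriptional repressor. None of the 10 passed the test in any comparison. Both PIASy-WT libraries lay above the other 4 libraries for Figla, Lhx8 and Uchl1, as they did for 19.9% of all tested genes, and below them for Zar1l, as for 24.4% of all tested genes.

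RNA-seq was performed on ICR mouse embryos at 28 h post insemination (hpi) in 3 groups of 2 libraries, each library made from a pool of 5 embryos after removal of the zona pellucida. Non-injection embryos received no RNA. PIASy-Mut embryos received mRNA for PIASy with the C335F change, a SUMO ligase mutant, and PIASy-WT embryos received mRNA for the wild-type protein. The paper describes both proteins as fused to mCherry, a fluorescent protein. The RNA was injected into the cytoplasm at 1.5 to 3 hpi at 100 ng/µl, and injected zygotes were kept if they fluoresced at 9 hpi, a selection that non-injection embryos did not go through. Among these groups no embryos were injected with an unrelated mRNA, so the injection itself separates non-injection from both other groups. Only 28 hpi was sampled, so the loss of a transcript over time was not measured, and in a pool a level shared by all embryos cannot be told apart from a higher level in some of them. The libraries of a group are biological replicates by the study's methods, and whether they came from separate injection sessions is not stated, so P-values measure the spread between these pools of embryos.

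Levels are given as FPKM, the fragments of a gene corrected for its exonic length and for library size, with the number of fragments behind them where it is small. The libraries held 871663 to 1363928 fragments, and 3 fragments, taken as the limit of detection, corresponded to 2.20 to 3.44 CPM, the share of a library without correction for length. Pias4, the gene for PIASy, measured 2.98 and 3.59 FPKM without injection, 862 and 611 with PIASy-Mut, and 610 and 579 with PIASy-WT, injected mRNA included. The 8 genes listed as markers of the two-cell stage, among them Zscan4d, Zfp352 and Obox3, were all detected and summed to 2095 to 2448 CPM in the 4 other libraries against 1357 and 974 CPM in PIASy-WT. Both PIASy-WT libraries were below the other 4 for Obox3, Tcstv3 and Zfp352, whereas Zscan4d (126 and 75.4 FPKM with PIASy-WT, 61.4 to 187 elsewhere), Zscan4c, Usp17la, Tcstv1 and Tdpoz3 overlapped the other libraries. FPKM and CPM are shares of a library, so a higher share of a maternal transcript cannot be told apart from a smaller amount of other mRNA. Of 10 genes listed for cumulus and granulosa cells, Amh, Foxl2, Inha and Inhba were at 0 in every library, and the sum was 4.40 and 7.96 CPM without injection, 6.78 and 17.2 with PIASy-Mut, and 15.8 and 11.3 with PIASy-WT. The 5 genes listed for blastocyst lineages summed to 3.67 and 9.73, to 14.5 and 21.8, and to 31.7 and 35.7 CPM in the same order, the largest part of it Nanog, Gata6 and Krt18. The part of these 3 lists in the results below was not tested.

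FIGLA and SOHLH1 are basic helix-loop-helix proteins, a class that binds E-boxes, whereas NOBOX and LHX8 carry homeodomains, which bind AT-rich cores. RefSeq promoter windows, from 250 bases before to 50 bases after a gene start, were at hand for 7 of the 10 genes. An E-box (CANNTG, either strand) occurred in the windows of Sohlh1, Zar1, Zar1l, Nobox and Figla, 5 of 7, against 72.3% of all 32851 windows. The E-box form CAGCTG was found in that of Zar1 (16.3% of all windows). Of the homeodomain cores, TAATTA matched none of the 7 (5.29% of all windows), whereas TAATTG matched Zar1l (8.0%) and TGATTG matched Zar1l and Uchl1 (14.0%). The TATA sequence TATAAA matched none of them (13.6%). Each motif was searched on both strands, every CAGCTG is also an E-box, and a match is a description of letters and not a site. The 100 bases upstream of the file's or RefSeq's first exon are shown for the members whose PIASy-WT libraries stood apart, where such a stretch lay outside annotated exons, and for Nobox. They are given 5′ to 3′ in the direction of transcription with GRCm38 positions, and capitals mark an E-box.
Lhx8 (chr3:154330660-154330759, minus strand): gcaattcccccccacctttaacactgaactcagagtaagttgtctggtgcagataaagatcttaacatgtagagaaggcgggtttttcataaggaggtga
Figla (chr6:86017091-86017190, plus strand): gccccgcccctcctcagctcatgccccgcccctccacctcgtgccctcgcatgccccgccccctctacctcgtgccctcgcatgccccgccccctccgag
Zar1l (chr5:150518165-150518264, minus strand): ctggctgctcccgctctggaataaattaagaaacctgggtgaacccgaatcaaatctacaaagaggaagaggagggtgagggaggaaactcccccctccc
Nobox (chr6:43309555-43309654, minus strand): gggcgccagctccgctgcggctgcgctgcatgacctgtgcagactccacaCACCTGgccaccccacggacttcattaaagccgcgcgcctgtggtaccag
Nobox carried 1 E-box in this stretch and the other sequences had none. The Figla stretch lies inside the gene span of the table, because the table's gene begins further upstream than the RefSeq start.

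The transcription factors were first examined. Lhx8, a LIM homeobox factor needed to keep oocytes in early follicles (chr3:154306294-154330659, minus strand), had 18.5 and 27.6 FPKM in the non-injection libraries, 13.0 and 20.8 under PIASy-Mut, and 44.1 and 45.7 under PIASy-WT. The PIASy-WT libraries had an SD of 1.13 FPKM (n = 2) and lay above the other 4. The mean was 2.65 times that of PIASy-Mut and 1.95 times that of non-injection. On the log2(FPKM + 1) scale, which understates changes of low genes, the difference was 1.39 (SE 0.34, 95% interval 0.57 to 2.21, limma adjusted P = 0.0621) against PIASy-Mut and 0.96 (SE 0.34, interval 0.14 to 1.78, adjusted P = 0.132) against non-injection. Neither passed 0.05. The difference from PIASy-Mut passed when PIASy-Mut replicate 2 was left out (1.71, adjusted P = 0.0279), when only genes of at least 5 FPKM in 2 libraries were tested (adjusted P = 0.0350) and with voom on the fragments (1.51, adjusted P = 0.0104), and without PIASy-Mut replicate 1 it was 1.07 (adjusted P = 0.166). Over all 17 alternatives the adjusted P ran from 0.0104 to 0.260.

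Figla, which activates zona pellucida genes and is required for primordial follicles (chr6:86016171-86020996, plus strand), was rare. Its fragments numbered 1 and 2 without injection, 2 and 2 with PIASy-Mut, and 6 and 11 with PIASy-WT, or 0.877 and 2.12, 2.32 and 2.74, and 5.41 and 11.4 FPKM. Both PIASy-WT libraries were above the FPKM that 3 fragments give for this gene (2.63 to 4.12), and the other 4 libraries were at or below 2 fragments. The 17 fragments of PIASy-WT against 3 of non-injection gave a depth-corrected ratio of 5.71 (95% exact interval 1.65 to 30.4), and against 4 of PIASy-Mut one of 3.27 (1.07 to 13.4). These intervals cover counting error only. limma gave a log2 difference of 1.89 (SE 0.49, adjusted P = 0.0708) against non-injection and 1.34 (SE 0.49, adjusted P = 0.140) against PIASy-Mut, and these log2 values depend on the pseudocount, since the lower group is at the limit of detection. Neither comparison of Figla passed under any of 16 alternatives.

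Nobox, the oocyte homeobox gene (chr6:43303674-43309554, minus strand), measured 12.8 and 10.5 FPKM without injection, 10.6 and 27.4 with PIASy-Mut, and 35.2 and 19.9 with PIASy-WT. PIASy-WT lay above non-injection but overlapped PIASy-Mut, whose libraries differed 2.58-fold from each other. The log2 difference was 1.13 (SE 0.50, adjusted P = 0.206) against non-injection and 0.60 (SE 0.50, adjusted P = 0.482) against PIASy-Mut, and the latter was -0.04 without PIASy-Mut replicate 1 and 1.25 without replicate 2. Sohlh1, which acts upstream of Lhx8 and Nobox in the ovary (chr2:25842995-25847248, minus strand), gave 4 and 2 fragments without injection, 0 in both PIASy-Mut libraries, and 0 and 1 with PIASy-WT. Its FPKM was 2.28 and 1.37, 0 and 0, and 0 and 0.675. The FPKM worth 3 fragments for Sohlh1 is 1.71 to 2.67, so 5 of the 6 libraries were at or below this limit and no fold is given. limma gave adjusted P-values of 0.172 for PIASy-WT against non-injection, 0.621 against PIASy-Mut and 0.891 for PIASy-Mut against non-injection. Taken as a group, the 4 transcription factor genes made up 76.3 and 94.6 CPM without injection, 56.2 and 110.1 with PIASy-Mut, and 187 and 166 with PIASy-WT, with no overlap of PIASy-WT and the rest. Most of this sum was Lhx8 and Nobox. Without Lhx8, PIASy-WT replicate 2 lay below PIASy-Mut replicate 2, so the lack of overlap rested on Lhx8. Taken singly, 19.9% of all tested genes had both PIASy-WT libraries above the rest.

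**Figure D1:**
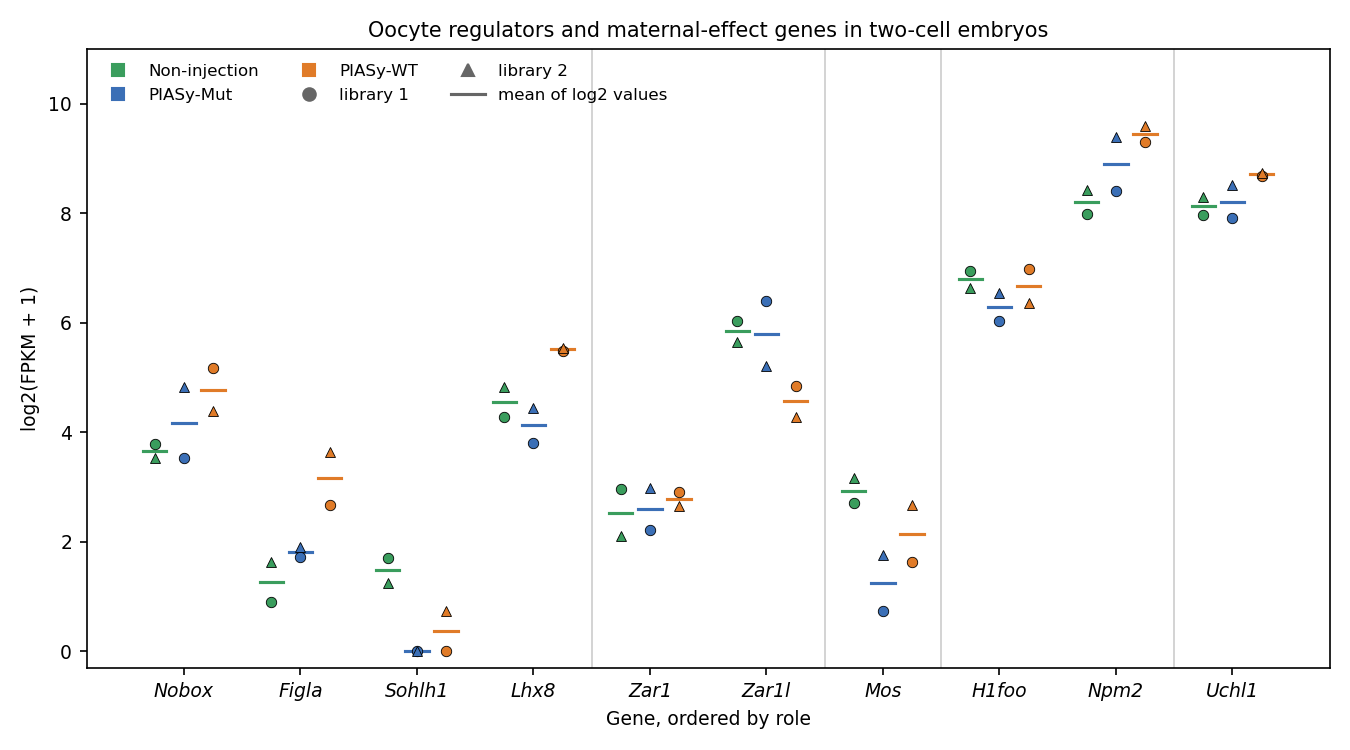
Level of each member on the log2(FPKM + 1) scale (vertical axis) by gene (horizontal axis), with circles and triangles for libraries 1 and 2 of each group and bars for the mean of the 2 log2 values. Both orange PIASy-WT points lie above all others for Figla, Lhx8 and Uchl1 and below them for Zar1l, whereas they overlap at least 1 other group for the remaining 6 genes.

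The mRNA-binding proteins of the ZAR family, which gather in oocyte granules with stored transcripts, differed from each other in pattern. Zar1l (chr5:150507055-150518164, minus strand) had 64.7 and 49.4 FPKM in the non-injection libraries, 83.3 and 35.9 under PIASy-Mut, and 27.8 and 18.5 under PIASy-WT. It was the member whose PIASy-WT libraries were both below the other 4, at 0.406 times the mean of non-injection and 0.388 times that of PIASy-Mut. The log2 difference was -1.28 (SE 0.45, interval -2.38 to -0.18, adjusted P = 0.133) and -1.24 (SE 0.45, interval -2.34 to -0.13, adjusted P = 0.143). Against non-injection it passed 0.05 with voom (adjusted P = 0.0467) and without PIASy-Mut replicate 1 (0.0433) or 2 (0.0428), fits in which those libraries enter only the spread and the filter. Against PIASy-Mut it passed without PIASy-Mut replicate 2 (-1.83, adjusted P = 0.0287), and without replicate 1 it was -0.64 (adjusted P = 0.368). The adjusted P over the alternatives reached 0.428 and 0.462. A pseudogene, Gm15933, lies in an intron of Zar1l and had 0 to 2 fragments.

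Zar1 (chr5:72576806-72581254, minus strand), the founding member of the family and a maternal-effect gene, was lower and without such a pattern. It measured 6.77 and 3.32 FPKM without injection, 3.63 and 6.95 with PIASy-Mut, and 6.53 and 5.27 with PIASy-WT, and all groups overlapped. The log2 difference of PIASy-WT was 0.25 (interval -0.87 to 1.36, adjusted P = 0.758) against non-injection and 0.18 (interval -0.94 to 1.30, adjusted P = 0.838) against PIASy-Mut. Its sign turned negative without non-injection replicate 2 (-0.18) or PIASy-Mut replicate 1 (-0.21), respectively. A difference of Zar1 and Zar1l in response was not tested.

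Mos encodes the kinase that feeds the MAP kinase pathway and holds the egg at the second meiotic metaphase, and its mRNA was scarce at this stage. Mos (chr4:3870657-3872105, minus strand) gave 11 and 13 fragments without injection, 1 and 3 with PIASy-Mut, and 4 and 9 with PIASy-WT, at 5.57 and 7.93, 0.669 and 2.38, and 2.08 and 5.40 FPKM. Both injected groups were below non-injection, and PIASy-WT overlapped PIASy-Mut. PIASy-Mut was at the limit of detection, and its 4 fragments against 24 in non-injection gave a ratio of 0.218 (exact counting interval 0.0551 to 0.636). The ratio of PIASy-WT to PIASy-Mut was 2.50 (0.772 to 10.5). limma gave an adjusted P of 0.397 for PIASy-WT against non-injection, 0.346 against PIASy-Mut and 0.970 for PIASy-Mut against non-injection. Mos and Sohlh1 were the members with an unadjusted P below 0.05 in the last comparison.

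Of the chromatin proteins, Npm2, the nucleoplasmin of the egg and a histone chaperone needed for early cleavage (chr14:70647302-70659244, minus strand), was the most abundant member. It had 254 and 344 FPKM in the non-injection libraries, 339 and 673 under PIASy-Mut, and 636 and 778 under PIASy-WT. PIASy-WT lay above non-injection at 2.36 times its mean, whereas PIASy-Mut replicate 2 fell between the PIASy-WT libraries and PIASy-Mut replicate 1 between the non-injection libraries. The log2 difference was 1.25 (SE 0.39, interval 0.30 to 2.19, adjusted P = 0.103) against non-injection and 0.56 (SE 0.39, interval -0.38 to 1.50, adjusted P = 0.403) against PIASy-Mut. The former passed with voom (adjusted P = 0.0136), with the 2 groups fitted alone (0.0409) and without PIASy-Mut replicate 1 (0.0272) or 2 (0.0276), and reached 0.364 in the least favourable alternative. The difference from PIASy-Mut was 0.063 without PIASy-Mut replicate 1 and 1.05 without replicate 2. For PIASy-Mut against non-injection the difference was 0.69 (SE 0.39, adjusted P = 1). Npm2 shares exonic sequence with Xpo7 on the same strand, so fragments in the overlap could be credited to either gene.

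H1foo, the linker histone of oocytes that is exchanged for somatic forms during cleavage (chr6:115944938-115950236, plus strand), measured 122.7 and 98.7 FPKM without injection, 64.5 and 92.7 with PIASy-Mut, and 125.6 and 81.1 with PIASy-WT. PIASy-WT overlapped both other groups. The log2 difference was -0.12 (interval -0.92 to 0.67, adjusted P = 0.835) against non-injection, 0.14 with quantile normalization, and 0.38 (interval -0.41 to 1.18, adjusted P = 0.491) against PIASy-Mut.

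Uchl1, a ubiquitin C-terminal hydrolase that is abundant in oocytes (chr5:66676091-66687234, plus strand), had 249.8 and 313 FPKM in the non-injection libraries, 239.8 and 364 under PIASy-Mut, and 413 and 426 under PIASy-WT. Both PIASy-WT libraries were above the rest, with an SD of 9.26 FPKM (n = 2) around a mean of 419. The mean was 1.49 times that of non-injection and 1.39 times that of PIASy-Mut. The log2 difference was 0.58 (SE 0.29, interval -0.12 to 1.29, adjusted P = 0.246) and 0.50 (SE 0.29, interval -0.20 to 1.21, adjusted P = 0.317), and neither passed under any alternative. The difference from PIASy-Mut was 0.20 without PIASy-Mut replicate 1 and 0.80 without replicate 2. The antisense gene Uchl1os overlaps its exons and had 0 to 7 fragments.

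The order of the levels was read from both libraries of each group. In non-injection, Npm2 (299 ± 63.6 FPKM, mean ± SD, n = 2) and Uchl1 (281 ± 44.8) stood at the top. Their ranges overlapped, but Npm2 was above Uchl1 within each library. They were followed by H1foo (111 ± 17.0), Zar1l (57.1 ± 10.8), Lhx8 (23.1 ± 6.41) and Nobox (11.7 ± 1.56), each above the next in both libraries. Mos and Zar1 overlapped below them, and Sohlh1 and Figla overlapped at the bottom. In PIASy-WT, Npm2 (707 ± 100.3) lay above Uchl1 (419 ± 9.26), Uchl1 above H1foo (103 ± 31.5) and H1foo above Lhx8 (44.9 ± 1.13). Lhx8 was above Zar1l (23.1 ± 6.61) there, the reverse of the order in both non-injection libraries. The ranges of Zar1l and Nobox (27.6 ± 10.9) overlapped. Within each PIASy-WT library Nobox was above Zar1l (35.2 against 27.8 and 19.9 against 18.5 FPKM), again the reverse of both non-injection libraries. Below them Zar1 overlapped both Figla and Mos, and Sohlh1 was last. In PIASy-Mut, Npm2 (506 ± 237) and Uchl1 (302 ± 87.9) again stood at the top, with overlapping ranges and Npm2 above Uchl1 within each library. Zar1l was above H1foo in replicate 1 (83.3 against 64.5 FPKM) and below it in replicate 2 (35.9 against 92.7), and Lhx8 (16.9 ± 5.54) overlapped Nobox (19.0 ± 11.9). No test was made of these orders.

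**Figure D2:**
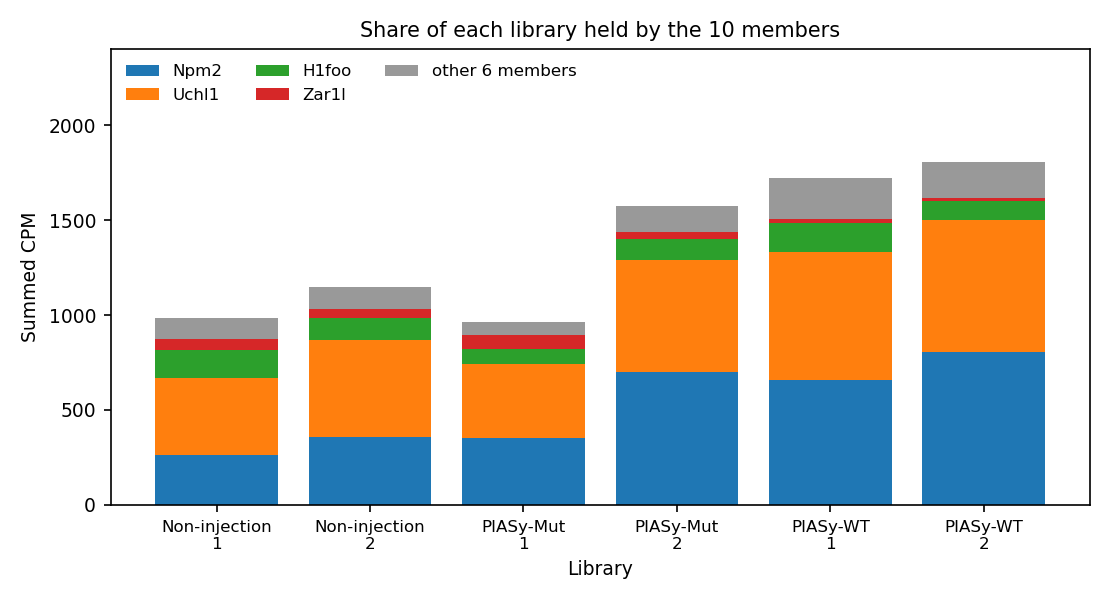
Summed level of the 10 members in each library (horizontal axis) in CPM (vertical axis, from 0), stacked by gene. The sum is 1721 and 1807 CPM in PIASy-WT, and PIASy-Mut 2 at 1573 is closer to these than to PIASy-Mut 1 at 964.

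Together the 10 genes took 984 and 1148 CPM of the non-injection libraries, 964 and 1573 of PIASy-Mut and 1721 and 1807 of PIASy-WT. Npm2 and Uchl1 accounted for 68.2% to 83.1% of the sum in each library, so the sum is mainly a statement on them. Without Npm2 it was 721 and 791, 613 and 875, and 1062 and 1001 CPM, and PIASy-WT was above the other libraries with and without it. With Uchl1 left out as well, PIASy-WT replicate 2 lay below non-injection replicate 1, so the remaining members as a sum did not stand apart. The PIASy-Mut libraries stood apart from each other: of 9 members above 0, 8 were higher in replicate 2 than in replicate 1, Zar1l being the exception, whereas 46.8% of all tested genes were higher in replicate 2. Of the 8, Figla had 2 fragments in each PIASy-Mut library and Mos had 1 and 3, at the limit of detection. In non-injection 5 of 10 members and in PIASy-WT 6 of 10 were higher in replicate 2.

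Counts of calls over the members were then set against the whole table of 16100 tested genes. In PIASy-WT against non-injection, 0 of 10 members were called higher, where 1.03% of all genes were, and 0 were called lower, where 5.76% were (limma, adjusted P of at most 0.05). In PIASy-WT against PIASy-Mut, 0 members were higher, with 0.82% of all genes, and 0 lower, with 6.01%. In PIASy-Mut against non-injection the count was 0 in both directions, with 0.00621% and 0% of all genes, the single gene called being Pias4. At these backgrounds a count of 0 among 10 does not set the members apart. An unadjusted P below 0.05 was reached by 5 members (Figla, Sohlh1, Lhx8, Zar1l and Npm2), 3 (Figla, Lhx8 and Zar1l) and 2 (Sohlh1 and Mos) in these comparisons, beside 1708 higher and 2838 lower, 1523 and 2933, and 382 and 336 of all 16100 genes. With voom on 10193 genes, which included all members but Figla and Sohlh1, Npm2 was called higher than in non-injection together with 756 of all genes, Zar1l lower together with 2049, and Lhx8 higher than in PIASy-Mut together with 675, so calls were also more frequent over the whole table. The requirement of a log2 fold change of at least 2 as well, the rule of the study, also left 0 members in each comparison, where 0.602% of all genes were higher and 3.81% lower against non-injection and 0.516% and 4.06% against PIASy-Mut.

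Both PIASy-WT libraries were above the other 4 for 3 of 10 members, a pattern shown by 19.9% of all tested genes, and below them for 1, against 24.4% of all genes. The median log2 difference of the 10 members was 0.41 against non-injection, 0.53 against PIASy-Mut and 0.01 for PIASy-Mut against non-injection, beside medians over all tested genes of 0.01, -0.03 and 0.04. The member median against PIASy-Mut was 0.16 without PIASy-Mut replicate 1 and 0.93 without replicate 2. That of PIASy-Mut against non-injection was 0.13 and -0.27 without these libraries. It was negative with quantile normalization (-0.06), TMM (-0.08) and voom (-0.09, Figla and Sohlh1 not included). Leaving out a non-injection library also took Sohlh1 below the filter, so the medians of the remaining 9 members against non-injection, 0.67 without replicate 1 and 0.75 without replicate 2, are not comparable with that of 10. For PIASy-Mut against non-injection these 9 members gave 0.15 and -0.16. Values above 0 were held by 6, 9 and 5 of the 10 members, and by 50.5%, 48.3% and 53.7% of all genes. Over the 7 members above 3 fragments in some library of each group (Figla, Sohlh1 and Mos left out), the medians were 0.58, 0.50 and 0.07. The comparisons share libraries, so their values are set side by side and no likeness between them is drawn.

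**Figure D3:**
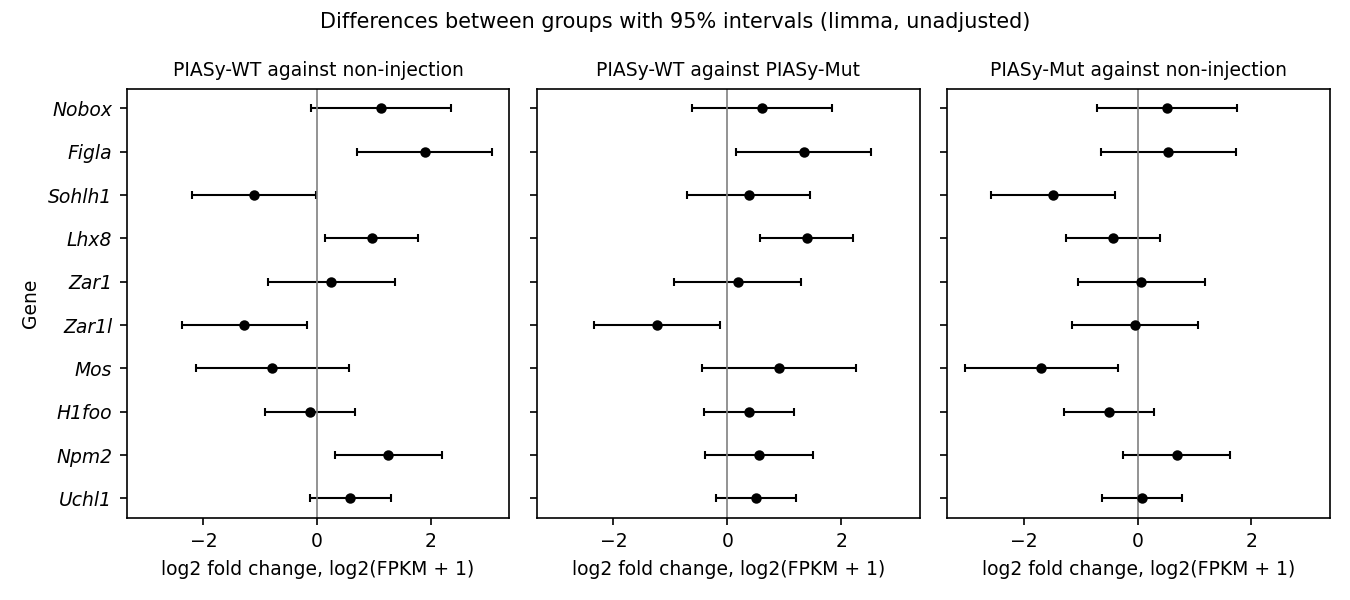
Log2 fold change on the log2(FPKM + 1) scale (horizontal axis) of each member (vertical axis) in the 3 comparisons, with bars for limma's 95% intervals before adjustment. The intervals of Figla and Lhx8 lie above 0 and that of Zar1l below 0 in both comparisons of PIASy-WT, and no member passed the adjusted threshold.

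The partners of these genes were described from lists of their pathways. Of 8 other oocyte transcription factors tested, 0 passed in either comparison of PIASy-WT, with median log2 differences of -0.00 and -0.27. Taf4b, a TFIID subunit of germ cells, measured 32.6 and 27.1 FPKM without injection, 35.9 and 16.5 with PIASy-Mut, and 9.82 and 10.3 with PIASy-WT (-1.48, adjusted P = 0.0778 against non-injection), and Tbpl2, the TBP form of oocytes, was at 10.6 and 10.3, 4.92 and 22.5, and 23.0 and 25.2 FPKM (1.13, adjusted P = 0.287). These 2 genes thus lay on opposite sides. Of 6 genes for zona proteins and oocyte-secreted factors, the downstream genes of FIGLA and NOBOX, 0 were higher and 1 was lower in each comparison. The list medians were 0.55 and 0.30. Of all tested genes, 1.03% and 0.82% were called higher and 5.76% and 6.01% lower. The gene called lower was Zp3, the sperm-binding zona protein, at 70.9 and 73.5, 80.6 and 74.6, and 25.1 and 22.4 FPKM. Zp3 fell in PIASy-WT, with a log2 difference of -1.57 against non-injection (SE 0.23, adjusted P = 0.0292) and of -1.67 against PIASy-Mut (SE 0.23, adjusted P = 0.0240), while Figla, its activator in the ovary, had its largest values in these libraries. Zp2 differed by 0.81 and 0.23 and Zp1 by 0.21 and 0.47, so the other zona genes of the list lay above 0 without passing. Oosp1, an oocyte-secreted protein, was the most abundant of the list and differed by 0.30 and -0.04. Bmp15, a growth factor secreted by the oocyte, differed by 1.55 and 1.48 (adjusted P = 0.0737 and 0.0824).

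The 14 genes for stored mRNA and its translation gave 0 calls, with medians of 0.47 and 0.32. Btg4, an adaptor that brings the CCR4-NOT deadenylase to maternal mRNA, had 1247 and 1168 FPKM in the non-injection libraries, 508 and 1332 under PIASy-Mut, and 3354 and 3020 under PIASy-WT. Both PIASy-WT libraries of Btg4 were above the rest, with log2 differences of 1.40 (SE 0.47, adjusted P = 0.118) and 1.95 (SE 0.47, adjusted P = 0.0604). Cnot7, a catalytic subunit of that deadenylase, was at 291 and 258, 197 and 308, and 491 and 417 FPKM (0.72 and 0.88, adjusted P = 0.174 and 0.120). The mRNAs of both thus had their largest shares in the PIASy-WT libraries without passing the test.

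Around Mos, 14 of 15 listed genes of the kinase pathway and of meiotic arrest were tested. In each comparison of PIASy-WT 0 of them were higher and 1, Cdk1, was lower. The shares over all tested genes were 1.03% and 0.82% higher and 5.76% and 6.01% lower. At these backgrounds a count of 1 among 14 does not set the list apart. Cdk1, the mitotic kinase, measured 182 and 181 FPKM without injection, 238 and 166 with PIASy-Mut, and 42.1 and 31.2 with PIASy-WT. It fell in PIASy-WT, with log2 differences of -2.29 (SE 0.28, adjusted P = 0.0247) and -2.42 (SE 0.28, adjusted P = 0.0223). Its partner Ccnb1, cyclin B1, was at 338 and 277, 352 and 249, and 243 and 203 FPKM (-0.46 and -0.42, adjusted P = 0.327 and 0.388). Wee2, the oocyte kinase that inhibits CDK1, was at 233 and 274, 225 and 311, and 388 and 446 FPKM (0.72 and 0.65, adjusted P = 0.145 and 0.179). Fits without 1 of the non-injection or PIASy-WT libraries leave 1 library in a group and called genes lower nowhere in the table. They therefore cannot tell whether the calls of Cdk1 and Zp3, or that of Trim28 below, rest on a given library. Against PIASy-Mut the same holds for the fit without PIASy-Mut replicate 1. With only the 2 groups fitted, genes were also called lower nowhere, so the calls against PIASy-Mut were made only with the third group in the fit.

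Among linker histones and nucleoplasmins, 6 of 8 genes were tested and 0 were called, with medians of -0.10 and 0.10. Npm1, the ubiquitous nucleolar relative of Npm2, had 300.1 and 255 FPKM in the non-injection libraries, 358 and 256 under PIASy-Mut, and 140.1 and 119 under PIASy-WT (-1.09 and -1.22, adjusted P = 0.0654 and 0.0524). Relative to non-injection, the PIASy-WT values of Npm1 were thus lower and those of Npm2 higher. H1f0, a replacement linker histone, was at 10.2 to 20.5 FPKM over the libraries (0.23 and 0.52). Of 10 maternal chromatin factors, 0 passed against non-injection and 1 was lower than in PIASy-Mut, where 6.01% of all tested genes were lower. This was Trim28, the corepressor of KRAB zinc finger proteins, at 9.17 and 8.93, 15.8 and 10.2, and 3.81 and 3.56 FPKM (-1.10, adjusted P = 0.0975, and -1.55, adjusted P = 0.0491). Dppa3, which protects maternal methylation, was the most abundant of the chromatin factors and differed by -0.88 and -0.64 (adjusted P = 0.153 and 0.277), and Ctcf by 0.31 and 0.21. The 4 ubiquitin C-terminal hydrolases gave 0 calls. Uchl3, the nearest relative of Uchl1, was at 104 and 83.8, 75.1 and 88.0, and 119 and 108 FPKM (0.27 and 0.47), and Uchl5 differed by 0.01 and -0.30. The 7 genes of the subcortical maternal complex, which the egg needs for first cleavages, also gave 0 calls, with Zbed3 at 0.62 and 1.79 (adjusted P = 0.465 and 0.0863) and Ooep at 0.86 and 0.88. No gene of any list passed in PIASy-Mut against non-injection.

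**Figure D4:**
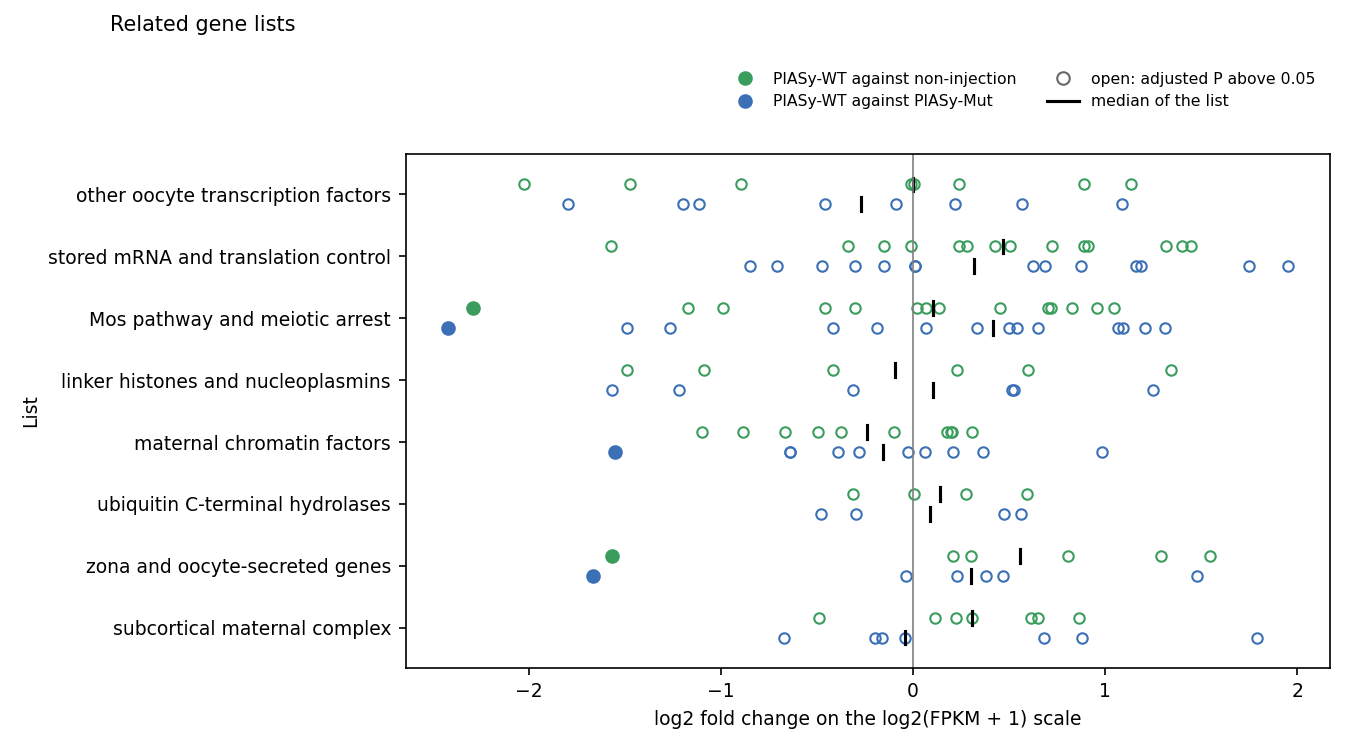
Log2 fold change on the log2(FPKM + 1) scale (horizontal axis) of each tested gene of 8 related lists (vertical axis), for PIASy-WT against non-injection in green and against PIASy-Mut in blue, filled where the adjusted P was 0.05 or below, with a black line at the median. The filled points are Cdk1 and Zp3 in both comparisons and Trim28 against PIASy-Mut, all below 0.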

How the data were processed

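Per the labels, total RNA of pooled two-cell embryos was amplified with the SMART-Seq v4 kit, which primes on poly(A), and ERCC spike-ins were added. Per the submitters' processing notes, Trim Galore, STAR, featureCounts and the mm10 build were used. The authors deposited FPKM for every gene and library, the only values used here. The authors ran DESeq2 on their counts. The annotation release and strand setting are not given in the sources used here, so overlapping genes are uncertain. Multiplied by gene length and scaled by the value of 1 fragment, 100% of FPKM values above 0 were whole numbers (tolerance 0.01), which gave the depth. Spike-ins are not used here.

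Groups and replicate numbers were taken from the labels. limma 3.58.1 in R 4.3.3 (lmFit, eBayes with trend) was run, with no block, on log2(FPKM + 1) of the 6 libraries together and over the 16100 genes for which 2 or more libraries reached 1 FPKM, with 3 residual and 3.12 prior degrees of freedom and Benjamini-Hochberg adjustment over all genes. This took the place of the count test because the values are FPKM. An exact permutation test of 2 against 2 cannot go below P = 0.333 and was not used. Counting intervals are exact binomial 95% intervals (scipy 1.17.1). The scripts were tested on simulated data. The members and the lists, markers and motifs were chosen with earlier results of these data known. Named beside the members were Pias4 and, from each list, the genes called in both comparisons of PIASy-WT and the 2 of highest mean FPKM. Trim28, a count of 1, and the zona genes Zp1 and Zp2 were named after their values were seen. For the 2 members of highest mean FPKM, the 3 genes with the highest Pearson correlation of log2(FPKM + 1) were named, among genes with a mean FPKM of at least 5, and 1 of them is not reported here. The 17 alternatives changed the pseudocount, filter, scaling, variance model, block, samples fitted or unit, or left out 1 library each. Sequences are from RefSeq promoter windows on GRCm38.p6, matched by symbol.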

Additional observations from a re-analysis of the deposited data

How the results depend on the processing

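Over the 10 members and 3 comparisons, 0 members were called under most of the 17 alternatives. The exceptions were Npm2, called higher than in non-injection (1 member) with voom on the fragments and with only the 2 groups fitted, Zar1l, called lower than in non-injection (1) with voom, and Lhx8, called higher than in PIASy-Mut (1) with voom and with the filter at 5 FPKM. Leaving out 1 library gave 0 to 1 members higher and 0 to 1 lower in each comparison of PIASy-WT, the 1 being Npm2 or Zar1l against non-injection without PIASy-Mut replicate 1 or 2, and Lhx8 or Zar1l against PIASy-Mut without PIASy-Mut replicate 2. A lone library was then assumed to vary like the other groups. Without a non-injection or PIASy-WT library, 0 or 1 of all genes were called in each direction, so these fits say little. All-gene counts ranged from 0 to 894 higher and 0 to 2049 lower against non-injection and from 0 to 1019 and 0 to 2032 against PIASy-Mut, where the main counts were 166, 928, 132 and 968. The cause of these changes was not tested.

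Signs turned, never past the threshold of 0.05, for H1foo against non-injection with quantile normalization (0.14) and, for PIASy-Mut against non-injection, for Zar1 (-0.0099 with TMM, -0.061 with voom) and Uchl1 (-0.014 with TMM, -0.020 with voom). With 1 library left out, differences of PIASy-WT from non-injection ran from -0.18 to 0.67 for Zar1 and from -0.43 to 0.19 for H1foo, those from PIASy-Mut from -0.044 to 1.25 for Nobox and from -0.21 to 0.57 for Zar1, and those of PIASy-Mut from non-injection from -0.12 to 1.17 for Nobox, -0.36 to 0.49 for Zar1, -0.64 to 0.55 for Zar1l and -0.22 to 0.38 for Uchl1. Quantile normalization moved the median of all genes from 0.01 to 0.12 and from -0.03 to 0.11 in the comparisons of PIASy-WT. Same-numbered libraries deviated together with r of 0.00, 0.09 and 0.06, so the numbers were not taken to pair them. With the replicate block, 0 members were called in every comparison, and all-gene calls were 89 higher and 719 lower against non-injection and 67 and 799 against PIASy-Mut. Depth limits Figla, Mos and Sohlh1, each at 3 fragments or fewer in at least 1 group.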

Other observations

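The genes whose pattern over the 6 libraries was most like that of the most abundant members were sought among 7029 tested genes with a mean FPKM of at least 5. For Npm2 they were Gemin7, a component of the SMN complex, with Pearson r = 0.998, Cds1, a CDP-diacylglycerol synthase, with 0.992, and B2m, the light chain of class I molecules, with 0.992. Gemin7 measured 37.9 and 51.6 FPKM without injection, 49.5 and 97.2 with PIASy-Mut, and 85.1 and 109 with PIASy-WT, so it shared the high value of Npm2 in PIASy-Mut replicate 2. For Uchl1 they included Cenpx, a centromere and DNA repair protein, with 0.997, and Ndufs6, a subunit of complex I, with 0.997. Cenpx was at 123 and 149 FPKM, 117 and 170.4, and 201 and 208 in the same order. With 6 points a high r is common, since 468 genes had r of at least 0.9 with Npm2 and 635 with Uchl1, and the points share libraries, depth and groups.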
